A study of Mus musculus with 8 samples.

Results

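The early growth response (EGR) genes Egr1, Egr2 and Egr3 encode zinc finger transcription factors, and Nab1 and Nab2 encode the corepressors that bind them. These 5 genes were taken as a family, of 18193 genes named on the array. Every probe set annotated to one of the 5 symbols alone was used, which gave 9 probe sets of 45101. Each gene is described by its brightest probe set, the one with the highest mean over the 8 arrays, and the other 4 probe sets are given separately. All 5 genes were among the 12091 genes tested.

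RNA came from CD4 T cells purified from the spleens of mice aged 8 weeks, and was measured on 8 Affymetrix expression arrays in 4 groups of 2. All cells had been activated for 15 h with antibodies against CD3 and CD28, which stand in for the antigen and the costimulatory signal, so no group was unstimulated. The 4 groups were IFN-gR1-deficient (KO) cells with db-cAMP, KO cells with vehicle, wild-type (WT) cells with db-cAMP and WT cells with vehicle. The agent was present for the last 3 h. Dibutyryl cyclic AMP (db-cAMP) enters cells and acts like the second messenger cyclic AMP, which activates protein kinase A. KO cells lack the ligand-binding chain of the receptor for interferon-gamma, a cytokine that activated T cells themselves release. The strain, the allele and the number of mice pooled are not stated in the labels. Titles call the samples biological replicates, but no source names separate mice or cultures, so the p-values reflect the spread among these arrays alone, which may be technical. The free-text descriptions of the 4 KO arrays name WT cells, whereas their titles, source names and genotype entries name the knockout and were followed.

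EGR factors are made within an hour or so of T cell receptor signalling. The receptor activates the Ras-ERK kinase cascade, whose output reaches the EGR promoters through serum response factor (SRF) and its ternary complex partners of the ELK family, and calcineurin with NFAT is needed for full induction of Egr2 and Egr3. EGR1 acts on genes such as Il2 during activation, whereas EGR2 and EGR3 are best known in T cells for restraining activation and for anergy. NAB1 and NAB2 do not bind DNA. They attach to a repression domain that EGR1, EGR2 and EGR3 carry and turn them into repressors, in the case of NAB2 through the NuRD chromatin remodelling complex. NAB genes can themselves be induced by EGR factors, which closes a feedback loop.

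Array quality and cell identity were checked first. Replicate arrays correlated at 0.961 to 0.977 over the genes tested. Ifngr1, the targeted gene, gave signals of 1056 and 1272 in KO cells with db-cAMP, against 7319 and 8201 in WT cells with db-cAMP, and of 439 and 378 in KO cells with vehicle, against 905 and 873 in WT cells with vehicle. Where its probes lie relative to the disrupted part is not known here. Gbp2, a gene induced by interferon-gamma and chosen after its values were seen, lay between 384 and 678 in KO cells and between 6960 and 25753 in WT cells. Of 8 listed CD4 T cell markers 7 were on the array, and these 7 exceeded the array median on all 8 arrays, with summed signals of 69463 to 77362. Most of that sum came from genes of T cells in general, such as Cd3d (19991 to 29408), while Cd4 itself gave 253 to 539. The sum therefore does not tell CD4 from CD8 T cells. Of 26 markers of CD8 T cells, B cells, NK cells, myeloid, dendritic and erythroid cells on the array, 6 exceeded the array median on every array. The summed CD8 markers gave 270 to 335 in KO cells and 367 to 516 in WT cells, and the summed B cell markers gave 367 to 436 in KO cells and 523 to 677 in WT cells. The poly-A spike-in controls, added to the RNA before labelling, gave 4159 to 5834 on KO arrays and 1441 to 2148 on WT arrays. Within each genotype they were higher with db-cAMP, at 4872 and 5834 against 4159 and 4645 in KO and at 1779 and 2148 against 1441 and 1636 in WT. Other control measures separated the same arrays without overlap. The hybridization controls gave 14330 to 15857 on KO arrays and 18077 to 27169 on WT arrays. The ratio of 3-prime to 5-prime signal, a sign of RNA integrity and labelling, was 1.34 to 1.44 on KO and 1.46 to 1.72 on WT arrays for Actb, and 0.779 to 0.850 on KO and 0.734 to 0.769 on WT arrays for Gapdh. The 18S rRNA probe sets gave 31397 to 38701 with db-cAMP and 24553 to 28575 with vehicle. The summed NK cell markers gave 1273 and 1292 in KO cells with db-cAMP, against 913 and 917 in KO cells with vehicle, and 1119 and 1267 in WT cells with db-cAMP, against 1334 and 1174 in WT cells with vehicle. The part of these differences in the results below was not tested. In bulk RNA, fewer cells that express a gene and less of its RNA per cell cannot be told apart.

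All 3 EGR genes fell with db-cAMP in both genotypes. They kept 42.7% to 54.7% of their vehicle signal in KO cells and 12.7% to 28.8% in WT cells. Changes are log2 differences of the signal plus an offset of 5.48, each with the standard error of a limma fit over all genes, and a gene counts as changed at a Benjamini-Hochberg adjusted p under 0.05. By this rule 8.38% of the genes tested changed in KO cells, 4.70% higher and 3.68% lower, and 35.0% changed in WT cells, 16.4% higher and 18.6% lower. Of the 5 genes, 3 were lower, 1 was higher and 1 did not pass the test, and this count was the same in KO and in WT cells.

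Egr1, the family member that growth factor and antigen receptor signals induce most broadly, gave signals of 3034 and 2970 in KO cells with db-cAMP, against 5192 and 5779 in KO cells with vehicle. In WT cells it gave 1400 and 1042 with db-cAMP, against 4028 and 4444 with vehicle. The db-cAMP arrays lay below the vehicle arrays in each genotype, with no overlap, and the WT pair with db-cAMP was the lowest of all. For 2 arrays against 2, a share of 0.333 of all splits of the arrays leaves no overlap. A lack of overlap is therefore given here and below as description, not as a test, and its share over all genes was not counted. Egr1 fell by 0.87 ± 0.12 (SE) on the log2 scale in KO cells (limma adjusted p = 0.000402) and by 1.80 ± 0.12 in WT cells (adjusted p = 6.62e-08). The KO call was not met when the fit ignored the link between spread and intensity (adjusted p = 0.0819).

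Egr2, needed for Schwann cell myelination and in T cells a restraint on effector responses, gave 1445 and 1485 in KO cells with db-cAMP, against 3379 and 3480 in KO cells with vehicle. In WT cells the signals were 339 and 495 with db-cAMP, against 2989 and 3247 with vehicle. The vehicle arrays of both genotypes lay between 2989 and 3480 and every db-cAMP array below them, the WT ones lowest. The change was -1.22 ± 0.14 in KO cells (limma adjusted p = 8.82e-05) and -2.91 ± 0.14 in WT cells (adjusted p = 3.35e-09). Without the link between spread and intensity the KO change had an adjusted p of 0.0522.

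The Egr2 promoter is shown because it carries sequences on which the ERK and the cAMP pathways are known to act, and Egr2 was among the genes that db-cAMP lowered most. RefSeq lists 5 start sites for Egr2. The window of the third, 250 bases before to 50 bases after the start at chr10:67537619-67537918 (build GRCm38.p6, plus strand), reads 5′ to 3′ with a CArG box, the sequence SRF binds, and 2 short CRE sites (TGACG, the first part of a CRE) in capitals:
Egr2: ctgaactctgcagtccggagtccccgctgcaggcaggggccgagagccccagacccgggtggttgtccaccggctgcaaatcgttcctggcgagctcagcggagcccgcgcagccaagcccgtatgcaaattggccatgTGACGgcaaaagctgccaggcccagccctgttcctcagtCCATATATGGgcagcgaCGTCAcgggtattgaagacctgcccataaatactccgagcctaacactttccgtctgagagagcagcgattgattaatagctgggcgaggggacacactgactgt

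The CArG box lies at bases -72 to -63 from the start site. One short site lies at -111 to -107 on the plus strand and the other at -55 to -51 on the minus strand, and none of the motifs overlap. Both strands were searched, for the CArG box by name, for the whole cAMP response element (CRE, TGACGTCA), for the short CRE site TGACG, and for the EGR site GCGNGGGCG. The whole CRE and the EGR site were not found in this window. The last 2 Egr2 windows overlap it and hold the same 3 matches, the second holds another CArG box, and the first holds none of the motifs. Of 32851 RefSeq windows of the same length, 1.63% held a CArG box, 20.8% a short CRE site, and 0.244% (80) held both. Windows of Egr2 itself are among these 80. The window shown was picked from 5 with its matches known. The shares are therefore description and do not measure how unusual the matches are. These matches describe letters and do not show binding. Egr1 and Egr3 are named only.

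Egr3, which overlaps with EGR2 in restraining T cells, gave 875 and 892 in KO cells with db-cAMP, against 1815 and 1653 in KO cells with vehicle. In WT cells it gave 307 and 333 with db-cAMP, against 2428 and 2616 with vehicle. No groups overlapped, and the WT cells held both the highest and the lowest pair. Egr3 changed by -0.97 ± 0.10 in KO cells (limma adjusted p = 6.30e-05) and by -2.96 ± 0.10 in WT cells (adjusted p = 3.06e-10). Averaging its probe sets, of which the second is dim, gave -0.52 in KO cells (adjusted p = 0.286) and -1.81 in WT cells.

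Ordered from the lowest log2 change of 12091 genes, Egr2 ranked 172, Egr3 280 and Egr1 359 in KO cells. In WT cells Egr3 ranked 10, Egr2 11 and Egr1 135.

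**Figure D1:**
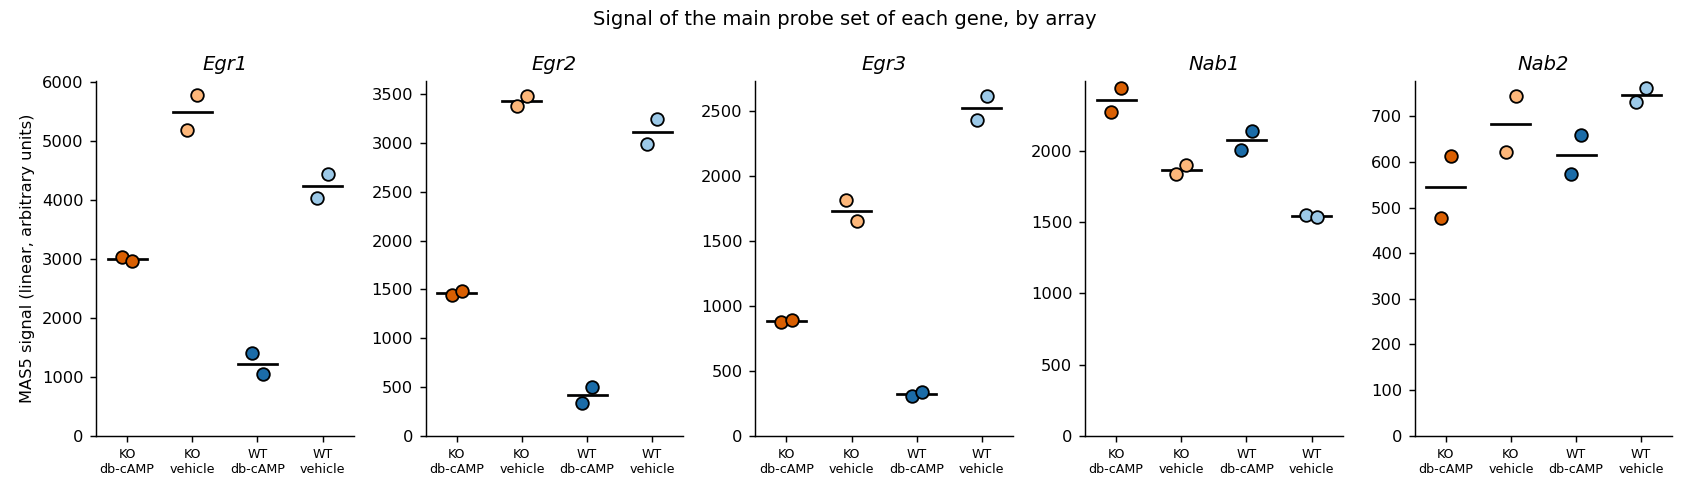
Signal of Egr1, Egr2, Egr3, Nab1 and Nab2 on each of the 8 arrays (brightest probe set, linear MAS5 signal with the axis from 0), by group, with points for arrays and lines for group means. The 3 EGR genes were lowest in WT cells with db-cAMP, Nab1 was highest in KO cells with db-cAMP, and the Nab2 arrays with db-cAMP lay below those with vehicle within each genotype.

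The corepressors differed from the EGR genes and from each other. Nab1 was higher with db-cAMP in both genotypes, at 126% of the vehicle signal in KO and 134% in WT cells, and Nab2 was at 79.8% in KO and 82.5% in WT cells and passed the test in neither. Nab1 gave 2276 and 2447 in KO cells with db-cAMP, against 1837 and 1902 in KO cells with vehicle. In WT cells it gave 2009 and 2144 with db-cAMP, against 1555 and 1536 with vehicle. Each db-cAMP pair lay above its vehicle pair with no overlap. Nab1 rose by 0.34 ± 0.09 in KO cells (limma adjusted p = 0.0279) and by 0.42 ± 0.09 in WT cells (adjusted p = 0.00144). The KO call was lost without any 1 of the 4 KO arrays (adjusted p = 0.0830 to 0.234), with arrays set to an equal 75th percentile (0.0585) and without the link between spread and intensity (0.151), and both calls were lost when the Nab1 probe sets were averaged, with adjusted p = 0.721 in KO and 0.300 in WT cells.

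The Nab1 promoter is shown because Nab1 encodes a partner of the EGR factors and its window holds several copies of the site they recognise. The window at chr1:52500399-52500698 (build GRCm38.p6, minus strand) is given 5′ to 3′ in the direction of the gene, from RefSeq, with 3 EGR sites (GCGNGGGCG on either strand) and 1 short CRE site in capitals:
Nab1: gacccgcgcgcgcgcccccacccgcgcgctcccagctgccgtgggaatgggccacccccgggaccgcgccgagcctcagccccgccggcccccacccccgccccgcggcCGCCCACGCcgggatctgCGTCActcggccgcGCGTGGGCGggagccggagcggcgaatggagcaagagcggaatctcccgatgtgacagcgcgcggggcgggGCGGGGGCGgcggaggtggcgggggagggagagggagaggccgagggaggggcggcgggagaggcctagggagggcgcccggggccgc

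The EGR sites lie at bases -141 to -133 on the strand opposite to the gene, and at -109 to -101 and -38 to -30 on the gene's own strand. The short CRE site lies between the first 2 of them, at -123 to -119. EGR sites were found in 5.55% of all windows, and 3 or more of them in 0.195% (64 windows). The Nab1 window was shown for its copies and the cut of 3 is its own count. These shares are therefore description and do not measure how unusual the window is. The site is rich in C and G, as is the window. None of the 4 motifs was found in the Nab2 window, which says only that these letters are not in it.

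Nab2, the corepressor that is itself an inducible gene in many cells, gave 478 and 613 in KO cells with db-cAMP, against 623 and 744 in KO cells with vehicle. In WT cells it gave 574 and 659 with db-cAMP, against 731 and 763 with vehicle. Each db-cAMP pair was below its vehicle pair with no overlap, while KO and WT arrays overlapped within each treatment. The log2 difference was -0.33 ± 0.15 in KO cells (limma adjusted p = 0.238) and -0.28 ± 0.15 in WT cells (adjusted p = 0.181). The 95% interval of the fit, not adjusted for the number of genes, ran from -0.65 to -0.00 in KO and from -0.60 to 0.05 in WT cells, which leaves out changes as large as those of the EGR genes.

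Setting KO against WT cells under db-cAMP, all 3 EGR genes were higher in KO cells. These arrays also enter the treatment comparisons above, so the values are not independent of them. Of the 5 genes 3 were higher by limma and 0 lower (0 also at an unadjusted p under 0.05), where 29.2% of the genes tested changed, 15.9% higher and 13.3% lower. Egr1 averaged 3002 ± 44.8 in KO and 1221 ± 253 in WT cells (SD, n = 2 each), Egr2 1465 ± 28.7 in KO and 417 ± 111 in WT cells, and Egr3 883 ± 12.1 in KO and 320 ± 18.3 in WT cells. The differences were 1.31 ± 0.12 for Egr1 (limma adjusted p = 2.73e-06), 1.83 ± 0.14 for Egr2 (adjusted p = 5.92e-07) and 1.45 ± 0.10 for Egr3 (adjusted p = 3.95e-07). No KO array overlapped a WT array for any of the 3. Nab1 differed by 0.18 ± 0.09 (adjusted p = 0.129) and Nab2 by -0.18 ± 0.15 (adjusted p = 0.416).

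Under vehicle the KO minus WT differences of the EGR genes did not share a sign by their brightest probe sets. With probe sets averaged, they were all above 0. Egr3 was lower in KO cells, with 1815 and 1653 in KO and 2428 and 2616 in WT cells, a difference of -0.54 ± 0.10 (limma adjusted p = 0.00482). It was the 1 gene of the 5 that passed, where 10.8% of the genes tested changed, 5.06% higher and 5.78% lower. This call was lost without WT vehicle replicate 2 (adjusted p = 0.0521), without KO vehicle replicate 2 (0.0529) and without the link between spread and intensity (0.0658). Averaging the Egr3 probe sets turned the difference to 0.18 (adjusted p = 0.749). Egr1 pointed the other way, at 0.37 ± 0.12 (adjusted p = 0.0630), and passed the test under 4 other settings, with adjusted p of 0.0136 to 0.0444. For Egr2 the difference was 0.14 ± 0.14 (adjusted p = 0.629), and 0.35 with its probe sets averaged, which passed (adjusted p = 0.0333). The values were 0.27 ± 0.09 for Nab1 (0.0590) and -0.13 ± 0.15 for Nab2 (0.684). The KO and WT ranges of Egr1, Egr2 and Nab1 did not overlap under vehicle, and those of Nab2 did. A share of 0.333 of all splits of 4 arrays into pairs leaves no overlap, so this alone does not show a difference.

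**Figure D2:**
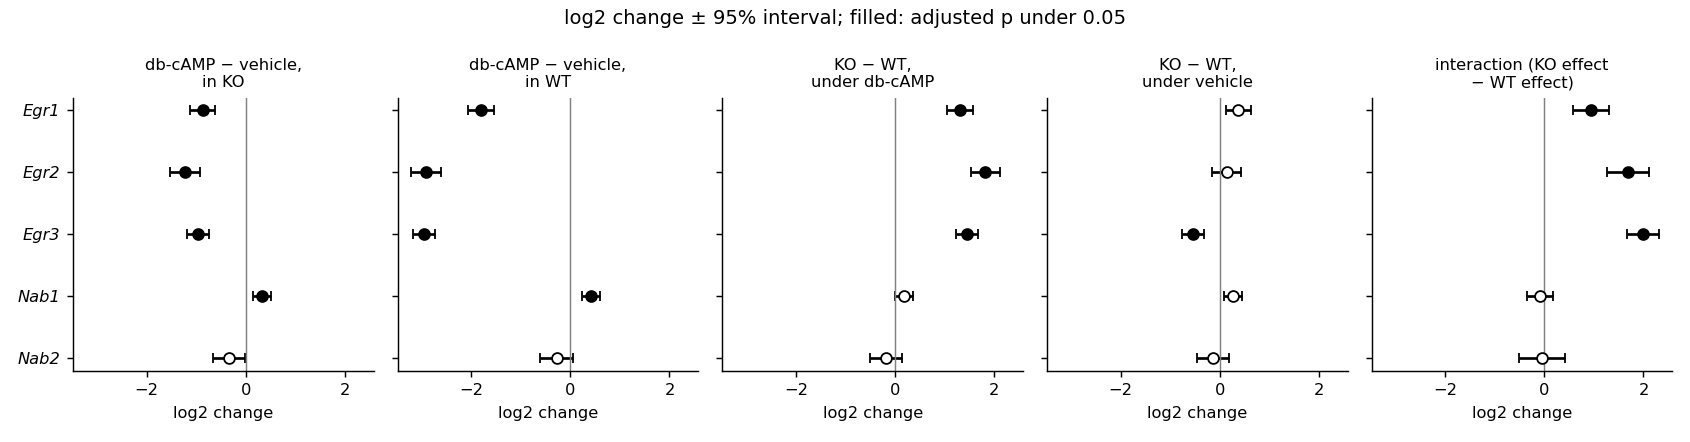
Log2 change of the 5 genes in the 4 pairwise comparisons and in the difference of the db-cAMP changes between KO and WT, as points with 95% intervals of the limma fit (filled where the adjusted p is under 0.05) and a line at 0. The EGR genes lie below 0 for db-cAMP in both genotypes and above 0 for KO against WT under db-cAMP, while the Nab1 and Nab2 points run from -0.33 to 0.42.

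The change with db-cAMP was smaller in KO than in WT cells for each EGR gene, and this was tested as the KO change minus the WT change. That difference was 0.94 ± 0.17 for Egr1 (limma adjusted p = 0.00252), 1.69 ± 0.20 for Egr2 (adjusted p = 0.00013) and 1.99 ± 0.15 for Egr3 (adjusted p = 5.50e-06). The 3 EGR genes passed with a higher value, where 11.8% of the genes tested passed, 6.70% with a higher and 5.09% with a lower value. As a share of the WT change, the log2 change in KO cells was 48.0% for Egr1, 42.1% for Egr2 and 32.7% for Egr3. These shares are of the brightest probe sets. The share was larger for the second Egr2 probe set, which gave -1.44 in KO and -2.54 in WT cells. With probe sets averaged, the Egr3 difference was 1.29 (adjusted p = 0.0435). The Egr1 difference was not called without the link between spread and intensity (adjusted p = 0.101). For Nab1 the difference was -0.09 ± 0.12 (adjusted p = 0.727, interval -0.35 to 0.17), and for Nab2 it was -0.05 ± 0.21 (adjusted p = 0.925, interval -0.51 to 0.41). These intervals leave out differences as large as those of the EGR genes, but a small one could not be seen with 2 arrays per group. Since Nab1 and Nab2 changed little, a KO change of the same share of the WT change as in the EGR genes is not left out.

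**Figure D3:**
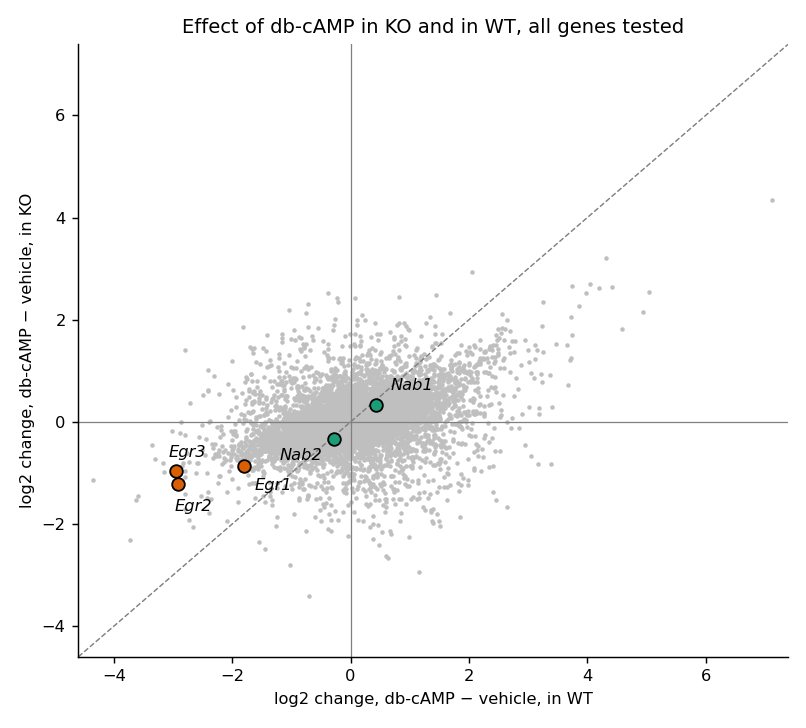
Log2 change with db-cAMP in KO cells (vertical axis) against that in WT cells (horizontal axis), with grey points for the 12091 genes tested, larger points for the 5 genes and a dashed line of equal change. The EGR genes lie above the line at the left, at -0.87 to -1.22 in KO and -1.80 to -2.96 in WT cells. Nab1 and Nab2, with small changes in both genotypes, lie close to the line.

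The 4 further probe sets were tested in a fit over 26527 probe sets, in which 4.79% changed with db-cAMP in KO and 26.0% in WT cells, 24.2% between KO and WT under db-cAMP, 10.3% between them under vehicle, and 6.83% in the KO minus WT difference of changes. The second Egr2 probe set gave 1005 and 900 in KO cells with db-cAMP, against 2684 and 2493 in KO cells with vehicle. In WT cells it gave 370 and 235 with db-cAMP, against 1702 and 1786 with vehicle. It moved as the first did, by -1.44 ± 0.17 in KO cells (limma adjusted p = 0.000218) and -2.54 ± 0.17 in WT cells (adjusted p = 1.49e-07), with a KO minus WT difference of 1.10 ± 0.23 (adjusted p = 0.0128). It was higher in KO than in WT cells under db-cAMP, by 1.67 (adjusted p = 9.92e-06), and also under vehicle, by 0.57 (adjusted p = 0.0461), where the first Egr2 probe set gave 0.14.

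The second Egr3 probe set was dim. It gave 207 and 98.9 in KO cells with db-cAMP, against 165 and 137 in KO cells with vehicle, and 74.3 and 30.3 in WT cells with db-cAMP, against 63.3 and 97.2 in WT cells with vehicle. Its db-cAMP and vehicle arrays overlapped in both genotypes, and the change was -0.06 in KO (limma adjusted p = 0.977) and -0.65 ± 0.48 in WT cells (adjusted p = 0.365). It was higher in KO than in WT cells under db-cAMP, by 1.48 ± 0.48 (adjusted p = 0.0376). Under vehicle the KO minus WT difference was 0.89 ± 0.48 (adjusted p = 0.313), with a sign opposite to that of the bright probe set. The KO minus WT difference of its changes was 0.59 ± 0.67 (adjusted p = 0.704). The second Nab1 probe set gave 472 and 397 in KO cells with db-cAMP, against 475 and 442 in KO cells with vehicle, and 587 and 528 in WT cells with db-cAMP, against 442 and 489 in WT cells with vehicle. Its log2 difference was -0.08 in KO (adjusted p = 0.870) and 0.26 ± 0.15 in WT cells (adjusted p = 0.247), so the rise of Nab1 rests on its brightest probe set. Under db-cAMP its KO minus WT difference was -0.36 ± 0.15 (adjusted p = 0.106), with a sign opposite to that of the brightest probe set. The third Nab1 probe set lay under the array median on all 8 arrays, at 1.79 to 47.0, and was not tested. Which transcript forms these probe sets detect was not examined.

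Group orders are given first for the brightest probe sets. Across the 4 groups, Egr1 and Egr2 had the same order of levels, with KO vehicle highest, then WT vehicle, KO db-cAMP and WT db-cAMP. Egr3 had WT vehicle above KO vehicle and otherwise the same order. Nab1 ran from KO db-cAMP through WT db-cAMP and KO vehicle to WT vehicle. Neighbouring groups in these orders did not overlap in their 2 arrays. Of the neighbours that were compared, KO and WT under vehicle did not pass the test for Egr1, Egr2 and Nab1, nor did KO and WT under db-cAMP for Nab1. WT vehicle against KO db-cAMP (Egr1 and Egr2) and WT db-cAMP against KO vehicle (Nab1) were not tested. Nab2 ran from WT vehicle to KO db-cAMP with every neighbouring pair overlapping. The second Egr2 probe set kept the order of the first. By contrast, the second Nab1 probe set ran from WT db-cAMP (558) through WT vehicle (465) and KO vehicle (458) to KO db-cAMP (434). The second, dim Egr3 probe set ran from KO db-cAMP (153) through KO vehicle (151) and WT vehicle (80.2) to WT db-cAMP (52.3).

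Genes were also ranked by the likeness of their log2 values over the 8 arrays to each member, among genes whose values spanned at least 1 log2 unit. Likeness is Pearson's r over 4 groups of 2 arrays, so it describes mainly the group means. Nearest to Egr1 were Sh3bp2 (0.997), Mpzl3 (0.996) and Riox1 (0.994). The genes most like Egr2 were Il2 (0.999), which encodes the T cell growth factor interleukin-2, with Abhd17c and Alkbh1 (both 0.997). For Egr3 they were Tfrc (0.997), the transferrin receptor, Srfbp1 (0.997) and Naf1 (0.996). Nab1 was nearest to Sema4c (0.983), Penk (0.981) and Klrc1 (0.977), and Nab2 less closely to E130307A14Rik (0.954), Mutyh (0.920) and Retn (0.916). Between members, r was 0.962 for Egr1 with Egr2, 0.971 for Egr2 with Egr3, 0.924 for Egr1 with Egr3 and -0.704 for Nab1 with Nab2.

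The genes around the family were taken from lists. Their counts stand against all genes tested, of which db-cAMP left 4.70% higher and 3.68% lower in KO cells. In WT cells 16.4% were higher and 18.6% lower. Immediate early genes, like the EGR genes, are induced within an hour of a signal without new protein synthesis. Fosl1 and Fosl2 are in the list used here but can be induced later. Of the 26 genes listed, 25 were tested, with 13 higher and 3 lower under db-cAMP in KO cells, and 14 higher and 3 lower in WT cells. Their median change was 0.56 in KO and 0.94 in WT cells, against medians of all genes of -0.00 in KO and 0.01 in WT cells. So most of the immediate early genes that changed moved opposite to the 3 EGR genes, which were not in that list. Klf4, a zinc finger factor of quiescent T cells, rose by 2.27 in KO and 3.87 in WT cells, Fosl2, an AP-1 subunit, by 1.05 in KO and 2.59 in WT cells, and Klf6 by 1.37 in KO and 2.25 in WT cells. Myc, the driver of T cell growth, fell in both genotypes, by a log2 change of -0.52 in KO and -1.98 in WT cells. Fosl1, another AP-1 subunit, gave -0.96 in KO cells, which did not pass, and fell by 2.80 in WT cells. Egr4, the remaining EGR gene, gave 6.08 to 76.4 on the 8 arrays and was not tested.

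Of 23 genes of the Ras-ERK cascade and of SRF with its cofactors, 17 were tested and the others were not analysed here. In KO cells 4 rose and 0 fell by limma (1 was lower at an unadjusted p under 0.05), and in WT cells 6 rose and 5 fell. Rasgrp1, the exchange factor that loads Ras with GTP after T cell receptor signalling, rose by 0.48 in KO and fell by 0.76 in WT cells. Elk3 gave -0.32 in KO cells, which did not pass, and fell by 1.17 in WT cells. Srf gave -0.21 in KO cells and did not pass, and fell by 0.67 in WT cells, while Elk1 passed in neither, at -0.07 in KO and -0.47 in WT cells. Mrtfa, the SRF cofactor that senses actin, rose by 0.97 in KO and 1.79 in WT cells. Of 10 ERK feedback inhibitors tested, 1 was higher and 1 lower with db-cAMP in KO cells, and 2 were higher and 4 lower in WT cells. Dusp6, a phosphatase of ERK whose gene is itself induced by ERK, fell in both genotypes, by a log2 change of -1.51 in KO and -2.37 in WT cells, and Dusp5, a nuclear ERK phosphatase, rose by 0.74 in KO and 1.24 in WT cells. Spry1, a Sprouty inhibitor of Ras signalling, gave -0.16 in KO cells, which did not pass, and fell by 1.31 in WT cells.

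Of 9 calcineurin and NFAT genes, 1 was higher and 1 lower with db-cAMP in KO cells, and 1 was higher and 3 lower in WT cells. Nfatc1 fell in both genotypes, by a log2 change of -0.54 in KO and -1.45 in WT cells. Nfatc2 gave -0.48 in KO cells, which did not pass, and fell by 1.46 in WT cells, and Nfatc3 rose by 0.36 in KO and 0.71 in WT cells. Of 24 genes reported as EGR targets in T cells, db-cAMP left 6 higher and 5 lower in KO cells, and 10 higher and 9 lower in WT cells. That is 45.8% changed in KO and 79.2% in WT cells, where 8.38% and 35.0% of all genes tested changed. The other lists gave 0% to 64% in KO cells and 44.4% to 68% in WT cells. All lists were chosen with earlier results of these data known, so these shares are description and not a test. Il2 fell in both genotypes, by a log2 change of -1.45 in KO and -3.59 in WT cells, and Tnf, the inflammatory cytokine, also fell, by a log2 change of -2.06 in KO and -2.66 in WT cells. Socs3, a feedback inhibitor of cytokine receptors, rose by 1.48 in KO and 2.68 in WT cells, and Ndrg1, an anergy gene that EGR2 is known to induce, by 1.16 in KO and 2.42 in WT cells. Fasl, the death ligand, gave 0.03 in KO cells and did not pass, and rose by 1.28 in WT cells. The reported targets therefore moved in both directions, with medians of 0.02 in KO and 0.33 in WT cells.

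Of 13 subunits of NuRD, the complex that NAB2 recruits, 0 changed in KO cells by limma, where 1 had an unadjusted p under 0.05, and 6 rose and 2 fell in WT cells. Of all genes tested, 8.38% changed in KO and 35.0% in WT cells. Mbd2, the methyl-DNA binding subunit, rose by 0.60 in WT cells and Mbd3, which takes its place in other NuRD complexes, fell by 0.58, where KO cells gave 0.11 for Mbd2 and -0.18 for Mbd3, neither past the test. Hdac1, a histone deacetylase, rose by 0.44 in WT cells, where KO cells gave 0.18 without passing. Chd4, the remodelling ATPase, gave -0.08 in KO cells without passing and rose by 0.34 in WT cells (limma adjusted p = 0.046), a call lost under 10 of its alternative settings.

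**Figure D4:**
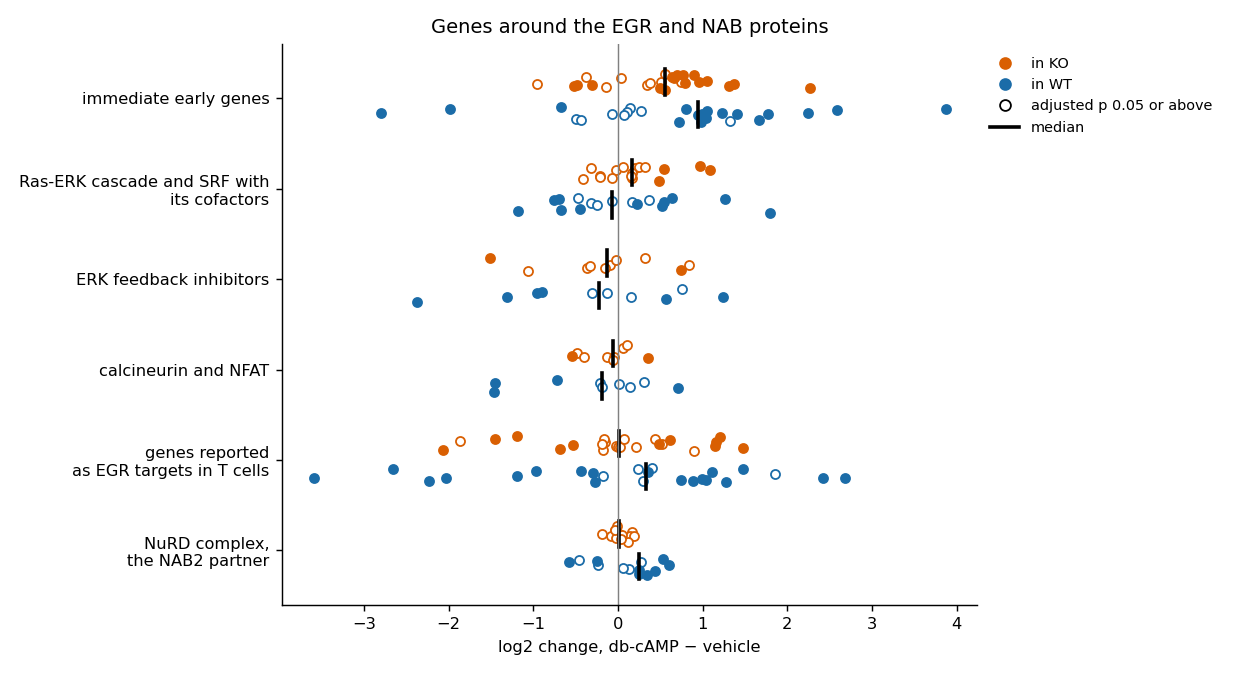
Log2 change with db-cAMP of each gene tested in 6 lists, in KO cells and below them in WT cells, with points for genes (filled where the limma adjusted p is under 0.05) and a bar for each list's median. Most immediate early genes lie above 0 in both genotypes, while the reported EGR targets and the ERK genes spread to both sides.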

How the data were processed

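Total RNA of 8 samples was hybridised to Affymetrix arrays after 3-prime in vitro transcription labelling, per the labels' protocols. MAS5 made the values, per the submitters' processing notes, and they were deposited as 1 linear intensity for each probe set and array. The MAS5 version is not stated there. The mean of the middle 96 percent of the deposited intensity values was 499.8 on each array, so the arrays had been scaled to a common level, which hides any difference in the total mRNA of a cell. Median signals ran from 56.2 to 70.5, and the number of arrays, not a read depth, limits the precision.

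Probe sets were named from the platform annotation where it gave 1 symbol (34945 of 45101), and each of 18193 genes was represented by its brightest probe set on average over the arrays, on the log2 scale. Values were transformed as log2(value + 5.48), the offset being the 10th percentile of all values, which shrinks the changes of dim genes. The fit took the 12091 genes that exceeded the array median on 2 or more arrays. Differences were tested with limma 3.58.1 in R 4.3.3 (eBayes with an intensity trend) with a term for each of the 4 groups, all 8 arrays, 4 residual degrees of freedom and 9.00 prior ones (median), and Benjamini-Hochberg adjustment over all genes tested. Further probe sets were tested in the same fit over 26527 probe sets. A permutation test of 2 against 2 arrays cannot go below p = 0.333 and was not used. The fit was tested on simulated data. Promoter windows were read from RefSeq (GRCm38.p6) and searched with Python 3.11.15, and figures were drawn with matplotlib 3.10.9.

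The 5 genes and the lists around them were chosen with earlier results of these data known. The text names the 5 genes whatever their values, up to 4 changed genes per list and comparison by size of change, Egr4, Srf, Chd4 and Elk1 whatever their values, and the 3 genes most like each member. Alternatives covered the offset, the filter, the probe set rule, the scaling between arrays, the variance model, the arrays in the fit, a replicate block and leaving out each array.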

Additional observations from a re-analysis of the deposited data

Results flagged for a closer look

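The results here are genes whose change with db-cAMP differed between KO and WT cells by the test of the difference itself, the KO change minus the WT change (limma, adjusted p under 0.05). Among the family these were Egr1 (0.94), Egr2 (1.69) and Egr3 (1.99), each with a smaller fall in KO cells. No cause of these differences was tested, and the poly-A and hybridization controls, the Actb and Gapdh 3-prime to 5-prime ratios and the CD8 and B cell markers also separated KO from WT arrays. The summed NK cell markers were higher with db-cAMP in KO cells without overlap, and overlapped between treatments in WT cells.

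Among the list genes named by the rule given above, 24 passed the same test, 13 with a value above 0 and 11 below. Above 0 were Il2 (2.15), Fosl1 (1.84), Myc (1.46), Crtam (1.34), Rasgrp1 (1.24), Spry1 (1.15), Nfatc1 (0.91), Elk3 and Dusp6 (both 0.86), Lag3 (0.80), Sos1 (0.76), Ccl1 (0.66) and Nr4a1 (0.59). Below 0 were Klf4 (-1.60), Fosl2 (-1.55), Ndrg1 (-1.26), Fasl (-1.25), Socs3 (-1.20), Klf6 (-0.88), Mrtfa (-0.82), Btg2 (-0.63), Dusp5 (-0.50), Mbd2 (-0.49) and Nr4a2 (-0.46). Some of these lie outside the 4 largest of their list in this test and were named through another comparison. Other list genes that passed are not named here. By list, 3 immediate early genes passed above 0 and 7 below, and 3 Ras-ERK and SRF genes above and 2 below. ERK feedback inhibitors gave 2 above and 1 below, and calcineurin and NFAT genes 1 above and 0 below. Reported EGR targets gave 6 above and 5 below, and NuRD subunits 0 above and 1 below. Over all genes tested, 6.70% passed above 0 and 5.09% below.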

How the results depend on the processing

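With 2 arrays per group, small changes of single genes and of dim probe sets are not resolved. Of 450 values of the 5 genes under alternative settings, 426 kept their direction and their side of the threshold, 15 lost the call, 5 gained it and 4 changed sign. The falls of Egr1, Egr2 and Egr3 in WT cells and their higher level in KO than WT cells under db-cAMP kept direction and call under all 18 alternatives run. Some settings, such as the variance model or leaving out an array outside the comparison, cannot move an estimate. They vary the call and not the direction. Of the 4 members changed with db-cAMP in KO cells, 1 remained called without the intensity trend and 2 with the mean of all probe sets of a gene. For KO against WT under vehicle, where 1 member changed, the count was 0 without the trend, 2 with quantile normalization, 2 with only the groups compared, and 0 to 2 when 1 array was left out. Signs turned for Egr3 in that comparison with the mean of probe sets (0.18) and for the Nab2 difference of changes when 1 array was left out (0.05 to 0.13 in 3 of 8 such fits, over a range of -0.23 to 0.13). The causes were not tested.

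Of the values of named list genes under the alternatives, 2436 kept direction and call, 240 lost the call and 6 changed sign. Of 60 counts of higher or lower list genes, 40 moved by over 1.5 times under at least 1 alternative, in 113 of 1080 counts. With the mean of probe sets, signs turned for Ksr1 (0.0395) and Sos1 (0.20) with db-cAMP in WT cells, for Ksr1 (-0.0473), Nfatc3 (0.24) and Mta1 (-0.16) in KO against WT cells under db-cAMP, and for the Sos1 difference of changes (-0.0176). Over all genes, 1013 changed in KO cells, against 188 without the trend, 497 with the mean of probe sets and 446 to 479 without KO vehicle replicate 2 or either KO db-cAMP array. In WT cells 4233 changed, and 6890 probe sets did. KO against WT under db-cAMP gave 3529 genes and 6431 probe sets, and under vehicle 1311 genes, against 251 without the trend, 794 with the mean, 2733 probe sets and 617 to 815 in 4 fits without 1 array. The difference of changes gave 1425, against 261 without the trend, 709 with the mean, 895 and 891 without either KO db-cAMP array and 982 to 1336 without any other array. With arrays set to an equal 75th percentile, 43.4% of the changed genes were higher in KO with db-cAMP, 37.9% in KO against WT under db-cAMP and 25.4% under vehicle, where the reported setting gave 56.1%, 54.6% and 46.7%, and the median of all genes moved to -0.13 in KO against WT under db-cAMP.

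Deviations of same-numbered arrays correlated at -0.0199 to 0.0206, so no shift shared by same-numbered arrays was seen. Whether these arrays came from the same mouse or culture is not stated and cannot be told from this. A fit with the replicate number as a block changed 4 members with db-cAMP in KO, 4 in WT, 3 in KO against WT under db-cAMP, 1 under vehicle and 3 in the difference of changes, the same counts as without it.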

Other observations

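The genes around the family also differed between KO and WT cells within a treatment, given here as log2 differences, KO minus WT. Under db-cAMP, 5 of 25 immediate early genes were higher and 8 lower in KO cells, among them Fosl1 (2.16) and Trib1 (1.68) higher and Klf4 (-1.81) and Jun (-1.28) lower. Of 17 Ras-ERK and SRF genes 6 were higher and 3 lower, with Rasgrp1 (1.31), Elk3 (1.14), Ksr1 (0.98) and Srf (0.85) higher and Rasgrp2 (-1.35) lower. Of 10 ERK feedback inhibitors 5 were higher by limma and 0 lower, where 1 was lower at an unadjusted p under 0.05, with Dusp7 (1.45) and Spry1 (1.30) at the top. Of 9 calcineurin and NFAT genes 2 were higher, Nfatc1 (1.04) and Nfatc2 (0.90), and 1 was lower, Nfatc3 (-0.36). The reported EGR targets divided evenly, 7 higher and 7 lower of 24, with Il2 (2.38), Crtam (1.70) and Ccl1 (1.66) higher and Socs3 (-1.87) lower. Of 13 NuRD subunits 4 were higher and 5 lower, led by Gatad2b (0.61) and Mta3 (-0.56). Over all genes tested, 15.9% were higher and 13.3% lower.

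Under vehicle fewer list genes passed, as over all genes. Jun (-0.98), an AP-1 subunit, was lower and Fosl2 (0.64) higher in KO cells among the immediate early genes, Rasgrp2 (-1.18) was lower among the Ras genes, and Lag3 (-1.12), an inhibitory receptor, was lower and Ccl1 (0.99) and Nrn1 (0.95) higher among the reported EGR targets.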
